A study of Mus musculus with 36 samples.

Results

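Narrow, high-scoring H3K27ac regions of the wild-type mouse forelimb are described here. They were chosen on the wild-type peak lists: of 26921 intervals covered by peaks of all 4 wild-type lists, the 1587 that were 1000 to 5000 bp wide and whose highest overlapping peak scored at least 1000 in each of the 4 lists (5.90% of the shared intervals). The width and wild-type score of these sharp strong intervals are therefore what selected them and are given as a description, with no test. Their values in the 14 knockout lists took no part in the choice.

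Acetylation of histone H3 at lysine 27 was profiled by ChIP-seq in pooled forelimbs of FVB mouse embryos at embryonic day 11.5, with no treatment of the animals. There were 4 wild-type (WT) libraries, 4 libraries of the mm1179 enhancer knockout (KO) line and 2 libraries of each of the hs72, hs1262, hs1467, hs1586 and hs1603 enhancer knockout lines. The comparison of knockout and wild-type limbs asks whether losing 1 limb enhancer alters this mark. The tissue was pooled and the labels name no separate animals, so p-values measure only the spread between libraries, which may be technical.

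H3K27ac is laid down by the acetyltransferases p300 and CBP and marks promoters and enhancers in use, while the same nucleosomes lack it where these elements are silent. A narrow region is usually 1 active promoter or enhancer, with the mark on the nucleosomes flanking an open site. Broad stretches of the mark often span clusters of enhancers near genes that define a cell's identity. In the limb bud, such regions include the regulatory landscapes of the genes that pattern the skeleton. The lists are in mm9 and no annotation of that build was used, so no gene, promoter or enhancer name was assigned to an interval and no sequence was read.

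The peak lists carry a tag that the labels do not give, and it was used here to define runs 1 to 4 as technical batches. Runs 3 and 4 share the same date-like part of the tag and were split by the digit after it. What the tag stands for is not stated, so "run" is a name given here. The first 2 libraries of WT and of mm1179 (replicates 1 and 2) were in run 1. Their replicates 3 and 4 shared run 2 with both hs72 libraries. Replicate 1 of hs1262, hs1467, hs1586 and hs1603 made up run 3, and replicate 2 of the same 4 lines made up run 4. Neither of these runs had a wild-type library, so against wild type a genotype of those lines cannot be told apart from its run. The run 3 libraries stood apart: each had 26550 to 32472 peaks, of which 1.12% to 3.45% scored at least 1000, against 30719 to 58753 peaks and 6.58% to 19.2% in the other 14 lists. Results are therefore given with and without run 3. The lists give no read counts, so read depth is unknown, and a missing peak means that no call was made, not that the mark was absent.

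The median sharp strong interval was 3413 bp wide (quartiles 2906 and 4015 bp). The median of the lowest of its 4 wild-type scores was 1449, with quartiles 1167 and 1996. Scores in these lists start at 40 and pile up at 3100, with few above it. In all, 125 of the 1587 intervals stood at 3100 or more in all 4 wild-type lists. The median wild-type score was 1897 in replicate 1, 1935 in replicate 2, 1621 in replicate 3 and 2117 in replicate 4. Replicate 3 was the lowest of the 4 libraries.

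The label "sharp" held for the shared stretch but not always for the peaks around it. Every overlapping wild-type peak was at most 5000 bp wide at 1057 of the 1587 intervals (66.6%). The widest overlapping wild-type peak had a median of 4400 bp and reached 29381 bp, and 42 intervals lay under a wild-type peak wider than 10000 bp. A wild-type peak that also overlapped another shared interval was present at 242 of them. At the intervals outside the 1057, a peak of at least 1 wild-type list was wider than 5000 bp. By list, the share under a peak over 5000 bp was 12.0%, 20.5%, 14.1% and 25.5% in WT replicates 1 to 4.

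The rule had 3 edges. Among widths, the interval just above the minimum was chr15:50522295-50523387 (1093 bp), followed by chr8:125566252-125567718 (1467 bp). Just outside were chr11:120093345-120094073 (729 bp) and chr14:22496914-22497499 (586 bp), and 13 strong intervals in all were narrower than 1000 bp. At the upper edge, chr5:107628089-107633081 (4993 bp) and chr3:88312635-88317622 (4988 bp) were inside, while chr9:41611278-41616278 and chr11:98795438-98800438 (5001 bp each) were outside. Few strong intervals thus lay near the lower width limit. On score, chr1:182706683-182709208 (lowest wild-type score 1001.0) and chr15:96321349-96323633 (1001.2) were just inside. The nearest outside were chr9:123437048-123439960 (999.8) and chr10:59026991-59030903 (999.4).

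Intervals of 2 other kinds served for comparison. The 593 broad strong intervals were wider than 5000 bp (median 6433 bp) and met the same score rule, with a higher median lowest score of 2621. The 21300 weaker intervals lay in the same width range but had a lowest wild-type score under 1000 (median 146), and were narrower, with a median of 1721 bp.

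The highest-scoring intervals were all at the top of the scale in wild type. The interval chr7:80738277-80742898 (4622 bp) scored 3100, 3205, 3227 and 3100 in WT replicates 1 to 4. It scored 3100, 2747, 3100 and 3100 in mm1179 replicates 1 to 4 and 3100 in both hs72 lists. In run 3 it scored 692 (hs1262), 1456 (hs1467), 475 (hs1586) and 1291 (hs1603), and in run 4 it scored 3100 in all 4 lists. The run 3 values were thus the lowest of all 18 lists at this interval.

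Among the 10 so named, chr8:38014110-38017363 (3254 bp) had the highest run 3 scores in hs1262 (1613), hs1467 (2979) and hs1586 (2153), with 981 in hs1603. The interval chr4:33333494-33337236 (3743 bp) scored 3100 to 3195 in wild type and 3100 in all mm1179, hs72 and run 4 lists. In run 3 it scored 296 in hs1262 and 41.3 in hs1467 and had no peak in hs1586 or hs1603. The interval chr17:35972889-35977160 and the interval chr1:180334830-180337575 had no peak in hs1603 replicate 1 alone. The remaining intervals of the 10 not named so far, on chromosomes 6, 13, 14 and 17, had a peak in every list. Even at the top of the wild-type scale, then, a peak could be missing from a run 3 list.

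**Figure D1:**
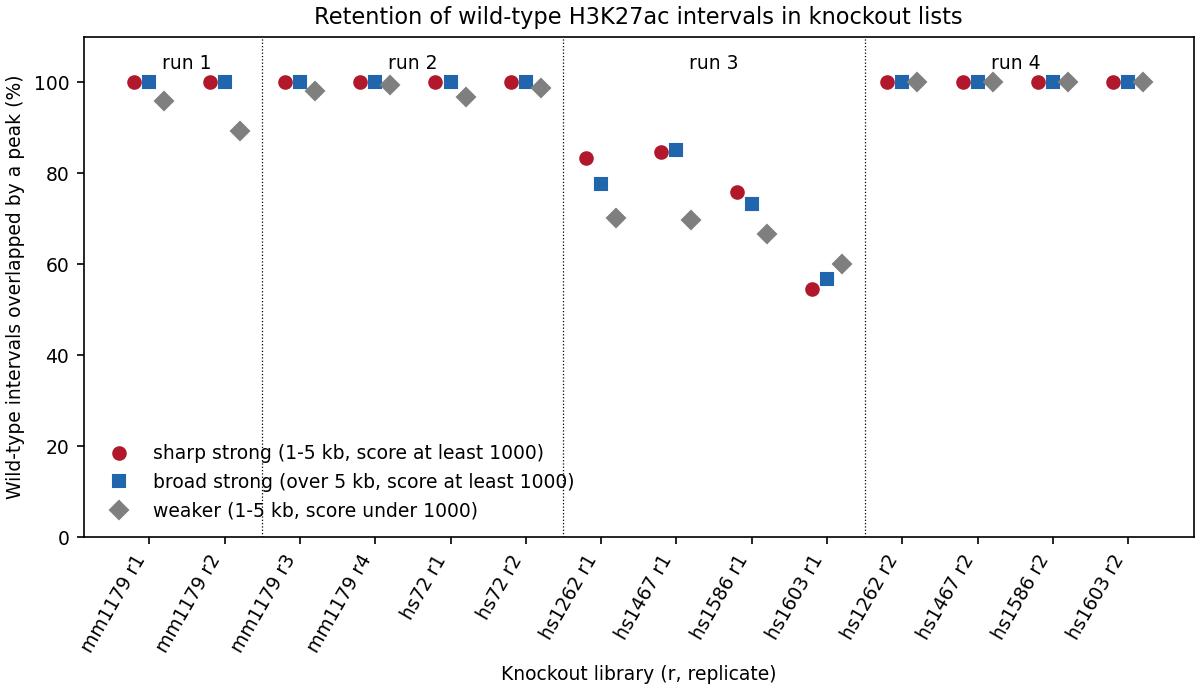
Percentage of wild-type intervals overlapped by a peak (y axis) in each of the 14 knockout libraries (x axis, ordered by run), for the 1587 sharp strong, 593 broad strong and 21300 weaker intervals, 1 symbol per class and library. Sharp strong intervals stood at 100% in the 10 libraries of runs 1, 2 and 4 and between 54.5% and 84.7% in run 3.

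Every sharp strong interval was called in every knockout list of runs 1, 2 and 4. In mm1179, 1587 of 1587 had an overlapping peak in replicates 1, 2, 3 and 4, where the share over all 26921 shared intervals was 93.7%, 86.2%, 96.7% and 98.9%. In hs72, all 1587 were called in replicates 1 and 2, against 95.1% and 97.8% of all shared intervals. In the 4 lists of run 4, all 1587 were again called, against 99.9% of all shared intervals in each list. In run 4 the share was so near the background that it says nothing about the sharp strong intervals.

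In run 3, from 243 to 722 of the same intervals had no peak. The list of hs1262 replicate 1 called 1322 of 1587 (83.3%; 70.1% of all shared intervals) and missed 265. The list of hs1467 replicate 1 called 1344 (84.7%; background 70.5%) and missed 243, and hs1586 replicate 1 called 1205 (75.9%; background 66.7%) and missed 382. The list of hs1603 replicate 1 called 865 (54.5%), below its background of 59.3%, and missed 722. Thus in 3 of the 4 run 3 lists the strongest narrow intervals were called more often than shared intervals at large, and in hs1603 replicate 1 less often, a difference that was not tested within that 1 list.

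Over the 4 run 3 lists, 835 intervals (52.6%) were called in all 4, slightly below the 54.1% of all shared intervals and the 55.4% of the weaker ones. These 835 are also the intervals called in all 14 knockout lists, where the share of all shared intervals was 43.4%. Exactly 1 list missed 298 intervals (18.8%; 10.1% of all shared intervals), exactly 2 missed 177 (11.2%; 6.47%), and exactly 3 missed 148 (9.33%; 7.04%). All 4 lists missed 129 (8.13%), against 22.3% of all shared intervals, 23.2% of the weaker and 9.44% of the broad strong intervals. Shares missed by 1 to 3 lists were thus above those of all shared intervals, and the share missed by all 4 below. No sharp strong interval was missed by every list of any 1 line, because replicate 2 of each of these lines called all of them.

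The intervals missed by the 4 run 3 lists overlapped. Of the 265 missed in hs1262 replicate 1, 254 were also missed in hs1603 replicate 1, which is 95.8% of the former list and 35.2% of the latter. For hs1467 and hs1603 the shared 237 were 97.5% and 32.8%, and for hs1586 and hs1603 the shared 365 were 95.5% and 50.6%. The lists of hs1262 and hs1467 shared 152 (57.4% and 62.6%). The hs1603 list thus missed nearly all that the other 3 missed, and others besides. It missed 45.5% of the sharp strong and 40.7% of all shared intervals. Matching overlaps over all shared intervals are not given here, so these are not read as particular to the sharp strong intervals.

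The 10 named from those missing in all 4 run 3 lists were those with the lowest wild-type scores. The interval chr4:76094069-76097719 (3651 bp) scored 2244, 1589, 1018 and 1358 in WT replicates 1 to 4. It scored 1434, 1314, 1480.4 and 2094 in mm1179 replicates 1 to 4 and 1108 and 1291 in hs72 replicates 1 and 2. In run 4 it scored 3100 in all 4 lists. The interval chr13:59870745-59873262 (2518 bp) scored 1664, 1008, 1079 and 1841 in wild type, 1222, 473, 1166 and 1624 in mm1179, and 1362 and 1407 in hs72, with 3100 in each run 4 list. Both had no peak in run 3 and the top score in run 4, for the same 4 lines. The interval chr16:96211732-96214412 was the 1 of the 10 with a run 4 score under 3100, at 2887 in hs1262 replicate 2.

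A test was made of whether the sharp strong intervals were retained more than weaker ones in the same width range. In the 14 knockout libraries the difference in percentage called was 3.85 ± 5.92 percentage points (SD, n = 14), sharp strong minus weaker. It was above 0 in 13 of 14 libraries, and an exact two-sided sign-flip permutation test gave p = 0.0314 (the smallest possible is 0.000122). In the 10 libraries outside run 3 all sharp strong intervals were called, so there the difference could not fall below 0. By run the mean difference was 7.4 points in run 1, 1.76 in run 2, 7.96 in run 3 and 0.0399 in run 4. The 1 library below 0 was hs1603 replicate 1, at -5.60 points, and the highest was hs1467 replicate 1, at 15.0. Without run 3 the mean was 2.20 points (exact permutation p = 0.00195, n = 10). That p-value is the smallest possible and follows from the full calling, so it adds no support. With lists of equal length the mean was 8.46 points (exact permutation p = 0.000244). Shortening kept the highest-scoring peaks of each list, and weaker intervals had the lower median score in every knockout list. A larger difference thus follows from the shortening, and this p-value adds no support either. The weaker intervals were also narrower, and the part of width in this difference was not tested. With the 6 lines as the unit the difference was 3.76 points and missed the threshold (exact permutation p = 0.0938). It also missed it when mm1179 replicate 1 or 2, or replicate 1 of hs1262, hs1467 or hs1586, was left out (exact permutation p from 0.0510 to 0.0627).

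Retention of sharp and broad strong intervals was compared in the same way, but could differ only in run 3. The mean difference was 0.405 ± 1.83 percentage points (SD, n = 14; exact permutation p = 0.625), with 10 libraries at exactly 0, because both classes were called in full there. A sign flip leaves a 0 unchanged, so only 4 libraries entered the test. It could not have passed the threshold of 0.05 whatever their values, and no conclusion is drawn from it. The 4 run 3 libraries held all the variation: hs1262 at 5.73 points, hs1586 at 2.74, hs1467 at -0.472 and hs1603 at -2.32. With a minimum score of 1500 the mean was 1.23 points (exact permutation p = 0.125). The sign turned without WT replicate 3 (-0.172) and without hs1262 replicate 1 (-0.00417).

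**Figure D2:**
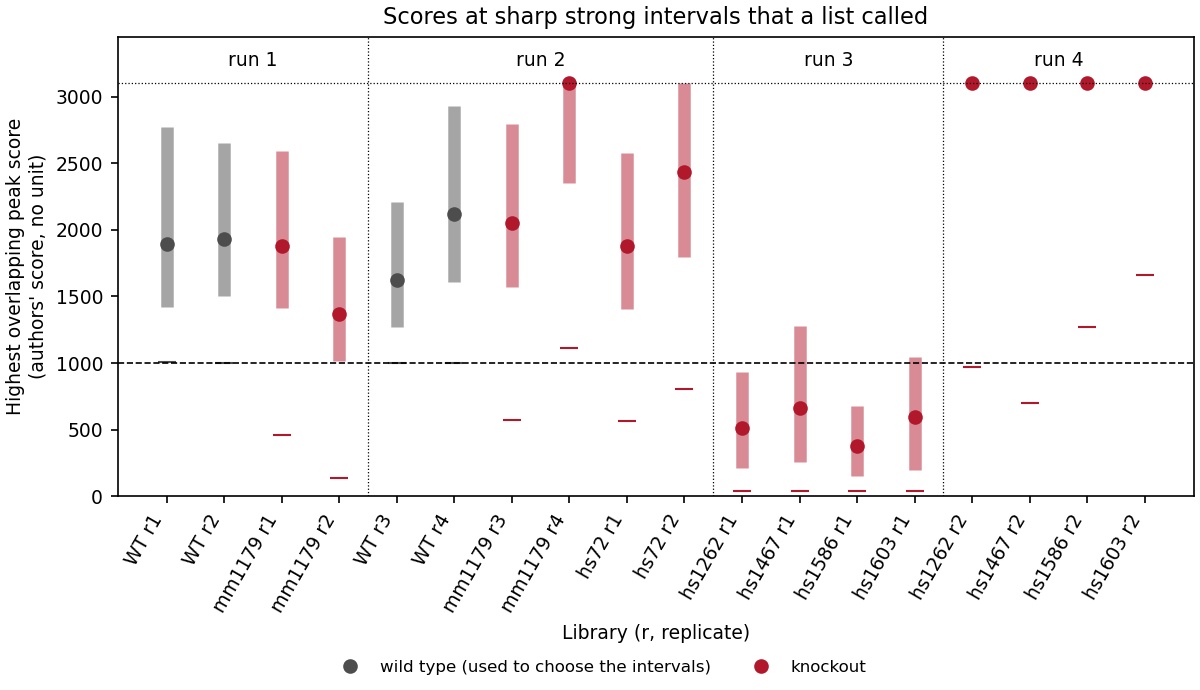
Highest overlapping peak score (y axis, the authors' score, no unit) at sharp strong intervals in each of the 18 libraries (x axis, ordered by run), over the intervals that the list called. Points are medians, bars run from the lower to the upper quartile, short ticks mark the lowest value, the dashed line is the score of 1000 and the dotted line the score of 3100; medians lay between 376 and 663 in run 3 and at 3100 in run 4.

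Retention of the score of 1000 was less even than retention of a peak. In mm1179, 1499 intervals scored at least 1000 in replicate 1 (94.5%; 13.7% of all shared intervals), 1209 in replicate 2 (76.2%; 8.42%), 1565 in replicate 3 (98.6%; 16.3%) and 1587 in replicate 4 (100%; 25.5%). In hs72 the number was 1540 in replicate 1 (97.0%; 13.8%) and 1580 in replicate 2 (99.6%; 20.2%). Replicate 2 of mm1179 thus stood lowest outside run 3, and it was also the shortest list outside run 3, with 30719 peaks.

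In run 3 the number scoring at least 1000 was 292 in hs1262 (18.4%; 3.21% of all shared intervals) and 480 in hs1467 (30.2%; 5.5%). It was 117 in hs1586 (7.37%; 1.47%) and 232 in hs1603 (14.6%; 3.3%). In run 4 it was 1586 in hs1262 (99.9%; 50%) and 1585 in hs1467 (99.9%; 47.6%). It was 1587 both in hs1586 (100%; 50.7%) and in hs1603 (100%; 43.8%). The same 4 lines thus had the lowest shares in run 3 and shares near or at 100% in run 4. The share of all shared intervals moved the same way.

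Scores in run 4 were pressed against the top of the scale. At 3100 or more stood 1529 intervals in hs1262 replicate 2 (18.5% of all shared intervals did so) and 1511 in hs1467 (17%). The number was 1556 in hs1586 (19.4%) and 1521 in hs1603 (15.5%). All 4 lists had such a score at 1441 intervals, against 13.6% of all shared intervals. In wild type the number was between 154 and 340 per list. The ceiling means that run 4 gives no order among most of the intervals.

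Over all 10 knockout lists outside run 3, 1162 intervals (73.2%) scored at least 1000 throughout, against 7.07% of all shared intervals. Over all 14 lists, 54 intervals (3.40%) did so, against 0.498%. Called but under 1000 in all 4 mm1179 lists stood 0 intervals, against 56.8% of all shared intervals, and called but under 1000 in both hs72 lists stood 1, against 73.2%. The first count was fixed by mm1179 replicate 4 alone, in which the lowest score at any of the 1587 was 1115.

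The mm1179 knockout was compared with wild type on intervals chosen without the library being scored. The rule was applied to 3 wild-type lists at a time, which gave 1657, 1596, 1757 and 1602 intervals, and the wild-type list left out was scored on them, while each mm1179 value is the mean over the 4 sets. Every left-out wild-type list and every mm1179 list called 100% of the intervals, so the difference was 0 percentage points (exact permutation p = 1). With every value at the ceiling, no conclusion is drawn from this test. The share scoring at least 1000 was 91.4%, 97.2%, 86.3% and 97.8% in left-out WT replicates 1 to 4, a mean of 93.2% ± 5.41 (SD, n = 4). It was 92.9%, 73.1%, 97.6% and 99.97% in mm1179 replicates 1 to 4, a mean of 90.9% ± 12.2 (SD, n = 4). The groups overlapped, and the difference of -2.31 points was smaller than the spread between libraries (exact two-sided permutation p = 0.857, smallest possible 0.0286). A share at a fixed score may depend on the depth of each list, which is unknown.

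Within runs the difference had opposite signs. It was -11.3 points in run 1 and 6.71 points in run 2. Either gave an exact permutation p of 0.667 with n = 2 against 2, where the smallest possible is 0.333. The pooled difference also turned to 3.61 points without mm1179 replicate 2 and to 1.27 points without WT replicate 4.

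Sharp strong intervals kept the score of 1000 less often than broad strong ones. The difference was -6.10 ± 7.78 percentage points (SD, n = 14), sharp minus broad, below 0 in 9 libraries, above 0 in 3 and at 0 in 2 (exact two-sided sign-flip permutation p = 0.0117). Run 3 carried most of it, with a mean of -16.4 points, against -9.03 in run 1, -0.691 in run 2 and 0.206 in run 4. Without run 3 it was -2.0 points and no longer passed (exact permutation p = 0.188, n = 10), and with a minimum score of 1500 it was -3.58 points (exact permutation p = 0.0391). The broad intervals had the higher wild-type scores, with a median lowest score of 2621 against 1449, and the part of this in the difference was not tested.

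Where a list called a sharp strong interval, the calling peak differed in width between runs. The median width of the overlapping peak was 3734, 3952, 3797 and 4148 bp in WT replicates 1 to 4 and 3540 to 4577 bp in the mm1179 and hs72 lists. It was 4754 to 5418 bp in run 3 and 4808 to 5290.0 bp in run 4. Run 3 thus had wide peaks with low scores and run 4 wide peaks with high scores at the intervals they called. Peaks of a list that covered an interval together with another shared interval were found at 6.74% (mm1179 replicate 2) to 22.8% (hs1603 replicate 1) of the called intervals.

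At 3 intervals, picked out after their values were seen, at least 1 run 4 list scored under 1000, against 60.1% of all shared intervals. The interval chr9:63805305-63809813 (lowest wild-type score 2294) scored 1286 in hs1262 replicate 2 and 700.2 in hs1467 replicate 2, under single peaks of 30679 and 33133 bp. In hs1586 and hs1603 replicate 2 it scored 3100 under peaks of 9755 and 11173 bp. The neighbouring chr9:63826715-63830294 lay under the same pair of wide peaks in hs1262 and hs1467. The other was chr2:30717506-30721694, at 969 in hs1262 replicate 2 under a peak of 35975 bp, while in hs1586 replicate 2 it scored 3227 under a peak of 35984 bp. Low scores at these 3 intervals thus came with peaks that ran far beyond them, though a peak of nearly the same width also had a high score.

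**Figure D3:**
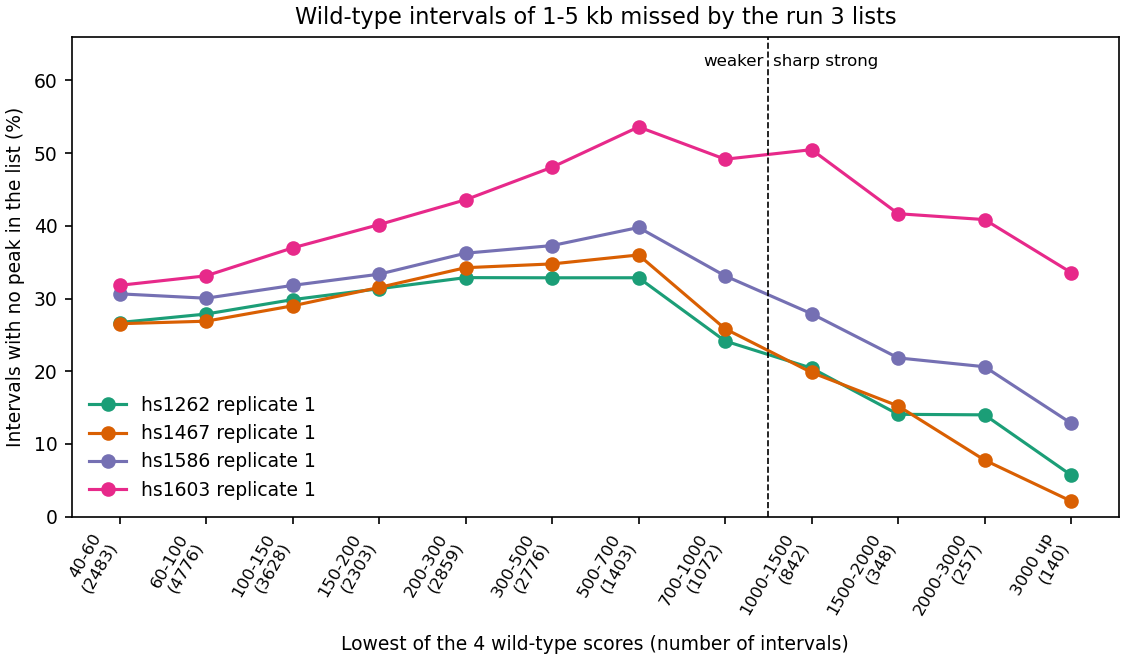
Percentage of shared intervals of 1 to 5 kb with no peak in each run 3 list (y axis), by the lowest of the 4 wild-type scores (x axis, number of intervals in brackets), 1 line per knockout library. The sharp strong intervals are right of the dashed line; the share missed falls with score on that side and rises with score over the lower bins on the other.

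Among sharp strong intervals, the share missed in run 3 was lower at higher wild-type scores, as a description of these lists. In hs1262 replicate 1 the share missed was 20.4% of the 842 intervals with a lowest wild-type score of 1000 to 1500, and 5.71% of the 140 at 3000 or more. Over the same bins it fell from 19.8% to 2.14% in hs1467, from 27.9% to 12.9% in hs1586 and from 50.5% to 33.6% in hs1603. The fall occurred in all 4 lists.

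From the lowest scores up to 700 the share missed mostly rose with score instead, though it was level from 200 to 700 in hs1262. Of the 2483 intervals of 1 to 5 kb with a lowest wild-type score of 40 to 60, hs1603 replicate 1 missed 31.8%, and of the 1403 at 500 to 700 it missed 53.6%. The share rose from 26.7% to 32.9% in hs1262, from 26.5% to 36.0% in hs1467 and from 30.6% to 39.8% in hs1586. The weakest bin was therefore missed less than the bin of 500 to 700 in each run 3 list. At 700 to 1000 the share was 24.2% in hs1262 and 25.8% in hs1467, below their weakest bin. It was 33.1% in hs1586 and 49.2% in hs1603, above their weakest bin. In hs1603 the weakest bin, at 31.8%, was missed less than the strongest, at 33.6%.

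Within the set, the share missed was highest among the narrowest intervals, as a description. In the narrowest of 5 equal classes (1093 to 2777 bp, 318 intervals) the share missed was 21.4% (hs1262), 22.0% (hs1467), 31.1% (hs1586) and 59.7% (hs1603). In the class of next to greatest width (3634 to 4160.0 bp) it was 11.7%, 11.4%, 19.9% and 40.1%. The widest class stood at 17.9%, 14.2%, 23.9% and 38.1%, so the decline with width ended before the widest intervals in 3 of the 4 lists.

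Missed intervals were often next to other missed ones. The shared interval that followed along the chromosome was also missed after 49.8% of the missed sharp strong intervals (hs1262), 49.8% (hs1467), 55.0% (hs1586) and 60.2% (hs1603). After a called one the figure was 28.5%, 26.6%, 29.3% and 32.6%. The nearest peak of the same list lay at a median distance of 14733 bp (hs1262), 13861 bp (hs1467), 16516 bp (hs1586) and 20711 bp (hs1603). The lower quartile of this distance was 5465 bp in hs1262 and 7718 bp in hs1603, the shortest and longest of the 4 lists.

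**Figure D4:**
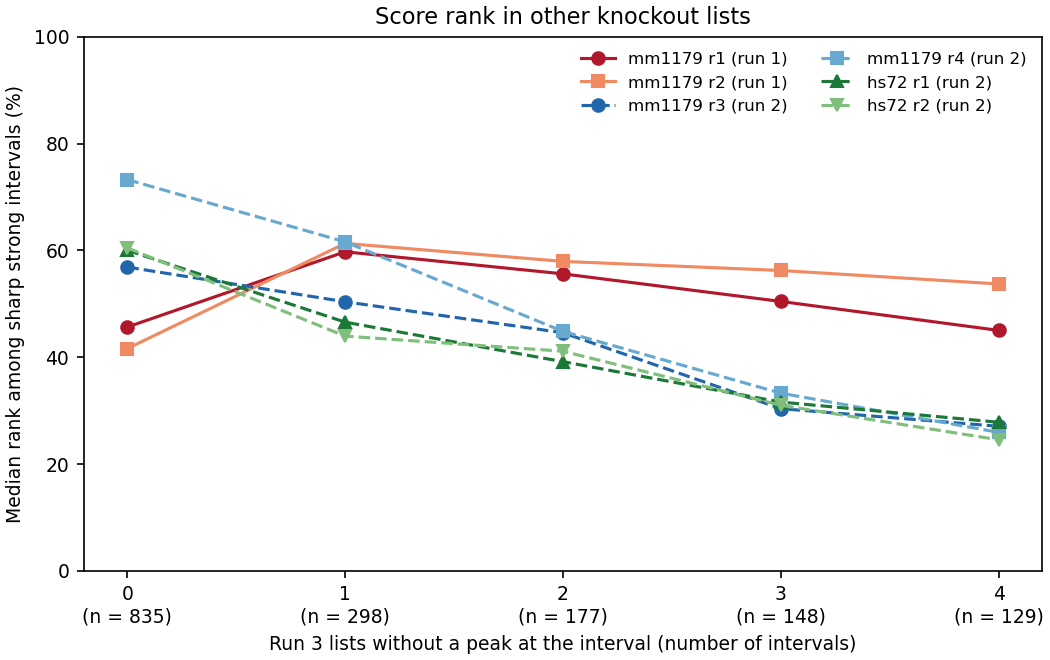
Median score rank among the 1587 sharp strong intervals (y axis, 0 lowest and 100 highest) in the 4 mm1179 and 2 hs72 lists, by the number of run 3 lists with no peak at the interval (x axis). Solid lines are run 1 and dashed lines run 2; ranks fall from left to right in the run 2 lists, and in the run 1 lists the intervals missed by 4 lists rank at 45.0 and 53.7.

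The sharp strong intervals missed in all 4 run 3 lists ranked low in run 2 but near the middle in run 1. Each interval was given its rank within a list, from 0 for the lowest to 100 for the highest score among the 1587. Intervals called in all 4 run 3 lists had a median rank of 56.9 and 73.3 in mm1179 replicates 3 and 4 (run 2), and 60.02 and 60.5 in hs72 replicates 1 and 2 (run 2). Those missed in all 4 had 27.1 and 25.9 in the same mm1179 lists and 27.8 and 24.5 in the hs72 lists. In mm1179 replicates 1 and 2 (run 1) the medians were 45.7 and 41.6 for the first set and 45.0 and 53.7 for the second. All 4 run 2 lists showed the fall, and neither run 1 list showed one of this size. Where 1 list missed the interval, the medians were 50.4 and 61.6 in mm1179 replicates 3 and 4. In replicate 4, 793 of the 1587 stood at 3100 or more, which limits ranks there. Weaker intervals went the same way. Median scores of those missed in all 4, against called in all 4, were 320 against 206 and 245 against 144 in mm1179 replicates 1 and 2. In replicates 3 and 4 they were 257 against 284 and 384 against 436.

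Interval by interval, the mean mm1179 rank was higher in run 1 than in run 2 at 292 of the 835 intervals called in all 4 run 3 lists (34.97%). The share was 62.8% where 1 list missed the interval, 68.4% for 2, 75% for 3, and 77.5% (100 of 129) for 4. The wild-type lists, which chose the intervals, showed the same order as a description: the median rank of the 129 was 53.2 and 44.7 in replicates 1 and 2 (run 1) and 29.1 and 21.8 in replicates 3 and 4 (run 2). The genotype was the same in both runs of mm1179, and what else differed between runs was not tested.

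Sharp strong intervals lay on all chromosomes except Y. Chromosome 11 held 150, the most, or 7.53% of its shared intervals and 1.27 per Mb between its first and last shared interval. Chromosome 7 followed with 121, chromosome 2 with 111 and chromosome 4 with 106. Density on the other autosomes ran from 0.457 per Mb on chromosome 1 to 0.846 on chromosome 19. Chromosome X held 21, or 4.29% of its shared intervals and 0.131 per Mb, the lowest density apart from Y. The X chromosome was also poor in shared intervals as a whole, with 490.

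Few of the X-linked intervals were missed in run 3. Of the 21, hs1262 and hs1467 replicate 1 missed 0, hs1586 missed 2 and hs1603 missed 3 (14.3%). On the autosomes the share missed was 16.9%, 15.5%, 24.3% and 45.9% of 1566. The weaker X-linked intervals did not follow in every list: 17.4%, 35.1%, 32.9% and 48.2% of 407 were missed, against 30.2%, 30.2%, 33.4% and 39.7% on the autosomes. With 21 intervals in 4 libraries of 1 run, this is a description.

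**Figure D5:**
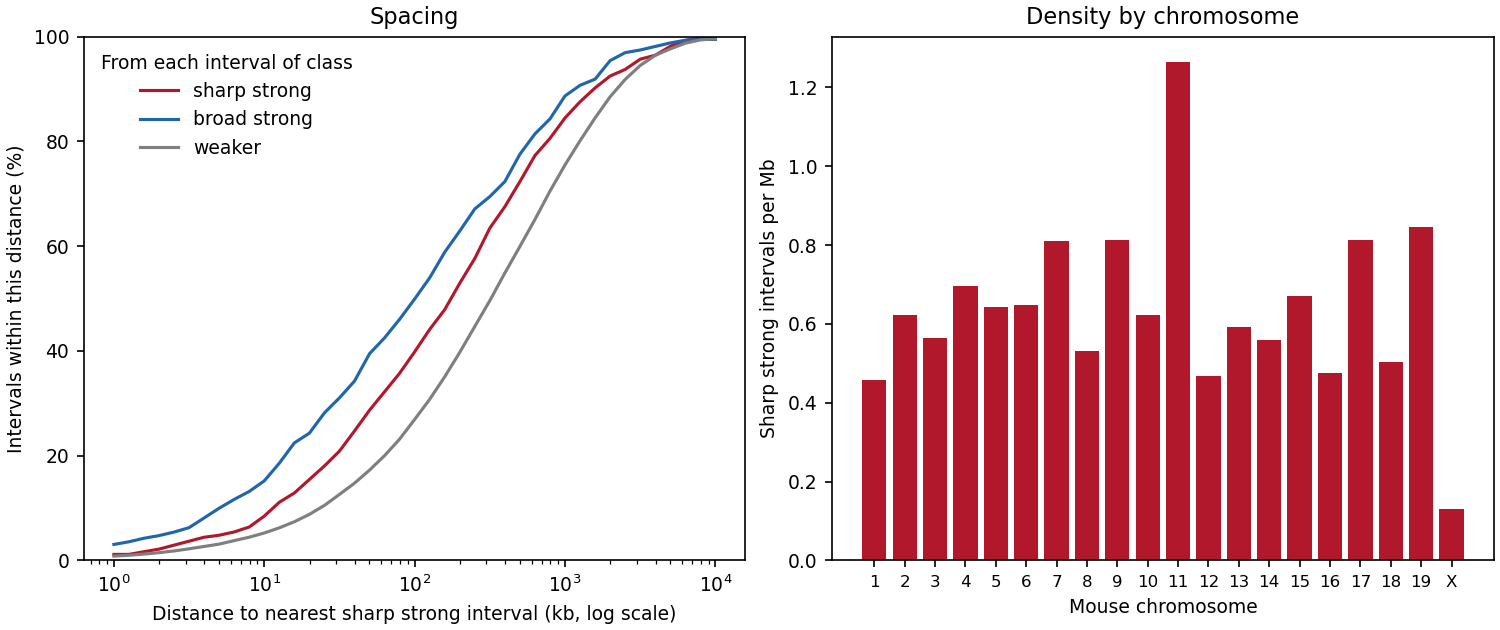
Left, percentage of intervals of each class (y axis) that had a sharp strong interval within the distance on the x axis (kb, log scale). Right, sharp strong intervals per Mb (y axis) on each mouse chromosome (x axis), over the stretch between the first and last shared interval; chromosome 11 was highest, at 1.27, and X the lowest shown, at 0.131.

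The intervals were spread widely, with some in close company. The distance to the nearest other sharp strong interval had a median of 168129 bp, with a range from 50 bp to 17086611 bp. Within 5 kb of another lay 76 intervals (4.79%), within 50 kb 455 (28.7%), within 100 kb 632 (39.8%) and within 1 Mb 1341 (84.5%), which leaves 246 alone over more than 1 Mb on both sides. From a weaker interval, the nearest sharp strong one lay at a median of 322036 bp, and from a broad strong one at 100123 bp. Broad strong intervals thus had the nearest sharp strong neighbours of the 3 classes.

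In order along the chromosome, a sharp strong interval was next to another on at least 1 side in 259 of 1587 cases (16.3%), against 11.3% for all shared intervals and 14.2% for broad strong ones. Neighbours under 1 wild-type peak can take the same score and so pass the rule together. Such a peak, reaching another shared interval, was present at 242 of the 1587 (15.2%), against 17.3% of all shared intervals. Its part in the spacing was not tested. The nearest shared interval of any kind lay at a median of 7260.0 bp, against 10790.0 bp from a weaker interval and 2686 bp from a broad strong one. Joined by gaps of at most 50 kb, the intervals formed 1337 groups. Of these, 1132 held 1 interval, 169 held 2, 30 held 3, and the longest held 6.

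The closest pair was chr15:50517437-50522244 (4808 bp) and chr15:50522295-50523387 (1093 bp), 50 bp apart under 1 wild-type peak of 15590 bp. In every knockout list both had the same score, from 1 peak that reached both, for example 1302 in mm1179 replicate 1 and 361 in hs1262 replicate 1. The shorter was the 1 interval under 50% covered outside run 3, at 42.5% in mm1179 replicate 2. Replicate 3 was the 1 wild-type list in which their scores differed, at 1605 and 1594, so that separate peaks met them there.

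Single 1-Mb windows held up to 11. The densest ran from chr3:95084061 to 96074459, with 11 among 40 shared intervals, of which hs1262 missed 1, hs1467 0, hs1586 2 and hs1603 4 in replicate 1. The window at chr4:132538465-133373004 held 10 among 53, and 1 was missed in all 4 run 3 lists. The window at chr10:127471412-128243924 held 10 among 40, and 3 were missed in all 4. The number missed in all 4 run 3 lists was thus 0, 1 and 3 in the 3 windows.

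The most isolated interval was chrX:131146042-131148381 (2340.0 bp), 17086611 bp from the next. It scored 1279, 1158, 1267 and 1828 in WT replicates 1 to 4 and 1122, 1115, 1705 and 2539 in mm1179 replicates 1 to 4. It scored 1617 and 1916 in hs72. In run 3 it scored 720.1 (hs1262), 684 (hs1467), 395 (hs1586) and 558 (hs1603), and in run 4 it scored 3100 in all 4 lists. It was thus called in all 14 knockout lists. The next most isolated, chrX:50001414-50005903, was called in all 14 as well, with 1677 in hs1467 and 1769 in hs1603 replicate 1. Of the other 3, chr14:87815041-87818064 was called in all 14, chr12:120475357-120478791 was missed in hs1603 replicate 1 alone, and chr16:52030197-52033535 was missed in 3 run 3 lists and scored 82.2 in hs1262.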

How the data were processed

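H3K27ac ChIP-seq peak lists of 18 libraries were used, 1 per library; the 18 input samples were not used here. The labels gave the groups. The build was mm9, and the tools named were MACS 1.4.2, Bowtie 0.12.8, cutadapt 1.1, bcl2fastq 2.17 and CASAVA, per the submitters' processing notes. For the inputs, use as a control is not given in the sources used here. Every deposited list gives positions and a score per peak. The score is the authors' own and was used to describe, filter or rank peaks. The share of intervals scoring at least 1000 was also compared between lists, with no adjustment for depth. What the score measures is not stated in the labels.

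Peaks of each list were merged, and stretches covered by all 4 wild-type lists were the shared intervals. An interval was called when it shared 1 bp or more with a peak, and its score was that of the highest overlapping peak. Depth is unknown, so no counting interval was computed. Comparisons used exact two-sided permutation tests, of 70 arrangements for mm1179 against wild type and by sign flips over libraries for classes of intervals, at a threshold of 0.05. Alternatives were 50% coverage, equal lists of 26550 peaks, a score of 1500, autosomes, means of lines, lists without run 3, the width of the widest wild-type peak, the replicate block and leaving out each replicate.

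Named intervals were the 10 with the highest lowest wild-type score (ties to the higher mean wild-type score) and the 10 called in fewest knockout lists (ties to the lower score). Also named were the 5 most isolated, the 3 densest windows of 1 Mb, the closest pair and the 2 on each side of each threshold. The members, classes and lists were chosen with earlier results of these data known. Procedures were tested on simulated data. Software was matplotlib 3.10.9, scipy 1.17.1, numpy 2.4.6 and Python 3.11.15. Positions count from 1.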

Additional observations from a re-analysis of the deposited data

How the results depend on the processing

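Of 108 alternative values, 95 were classed as the same as the main value, 7 as weaker, 4 as reversed and 2 as moved. The 95 include counts of intervals, which have no direction or threshold. They also include mm1179 retention, which was 0 in the main setting and had no direction to keep. The others of the 95 kept their direction and their side of the threshold. The number of sharp strong intervals was 745 with a minimum score of 1500 and 1057 by the width of the widest wild-type peak, and 1596 to 1757 with a wild-type list left out. Retention over weaker intervals missed the threshold over the means of the 6 lines (3.76 points, p = 0.0938, exact permutation test) and ranged from 2.99 to 5.12 points with a library left out. With lists of equal length it was 8.46 points (exact permutation p = 0.000244), which follows from keeping only the highest-scoring peaks and adds no support. The difference in retention from broad strong intervals ranged from -0.172 (without WT replicate 3) to 0.615 with a library left out, with -0.00417 without hs1262 replicate 1. It was 1.23 points with a minimum score of 1500 and 0.111 by the widest wild-type peak. The difference from them in the share scoring at least 1000 was -2.0 points without run 3, -3.58 with a minimum score of 1500 and -7.18 to -5.18 with a library left out. For mm1179 minus wild type that share ranged from -5.33 to 3.61 points (without mm1179 replicate 2) with a library left out, with 1.27 without WT replicate 4, and was -1.25 with a minimum score of 1500. The cause was not tested.

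With the replicate block the mm1179 difference was 0 points in retention and -2.68 points in the share scoring at least 1000 (exact permutation p = 1 for both). The correlation of same-numbered libraries was 0.0785 to 0.359, and the best match had the same number for 2 of 4 wild-type libraries. Libraries of different runs correlated at -0.340 to -0.0658, so the numbers were not taken as pairs. The values correlated, over 22087 intervals, were not raw scores. Sharp strong intervals had a median percentile of 95.6 to 97.2 among the peaks of each WT and mm1179 list. The negative values thus do not mean that profiles of different runs were opposed. Depth is unknown, and the ceiling at 3100 hides differences above it.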

Other observations

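Among the shared intervals outside the sharp strong set, a few were missed by every list of 1 line and called by all other lists. The mm1179, hs1467 and hs1603 lines had 1 such interval each, hs72 had 13, and hs1262 and hs1586 had 0. Of the sharp strong intervals, 0 were among them. The mm1179 interval was chr5:89013679-89014921 (lowest wild-type score 79.8), with the nearest sharp strong interval 2344419 bp away. The hs1467 interval was chr11:111688710-111691190 (231), 1953843 bp from the nearest, and the hs1603 interval was chr6:143446589-143449792 (300), 554250.0 bp from the nearest. The hs72 intervals had lowest wild-type scores from 41.4 to 134. The run 3 lists miss many intervals, which limits how often an interval can be called by all other lists.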
